A study of Homo sapiens with 14 samples.

Results

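Chromatin accessibility was described at 8 tumour suppressor genes that are lost or mutated in multiple myeloma (MM), namely RB1, CDKN2A, CDKN2B, CDKN2C, DIS3, TENT5C, FAF1 and ATM. The genes were chosen by name, out of 20033 protein-coding genes of GENCODE release 44, and every reference peak in the gene body plus 50 kb on each side was taken as belonging to them. The authors kept an accessible region as a reference peak of a cell line if 3 or more of its libraries had it. Those windows held 53 of the 72802 reference peaks of MM.1S and 57 of the 79969 of RPMI8226.

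The study grew each MM line alone (MONO) or with HS5, a human bone marrow stromal cell line, and took MM cells of the coculture from the upper transwell (TSW) or from the lower chamber in contact with the stroma (CO). Sorted MM cells were profiled by Omni-ATAC, in which a transposase cuts open chromatin and attaches sequencing adapters. MM.1S had 9 libraries, of which 3 were MONO, 3 TSW and 3 CO, and RPMI8226 had 5, of which 1 was MONO, 2 were TSW and 2 were CO. Each line is a single established MM cell line that received no drug or genetic change in these libraries, and the study noted a small share of HS5 cells among the cells sorted from the lower chamber. The list of each line pools its culture conditions, so MONO, TSW and CO could not be compared, and the files hold no read counts. Read totals of each library are given in the supplement of the study and were not used here, so the part of depth in the number of libraries with a peak was not tested. The single number given with a peak ran from 3 to 9 in MM.1S and from 3 to 5 in RPMI8226 and was read as its support, the number of libraries in which the peak was called. A reference peak needed 3 of 9 libraries in MM.1S but 3 of 5 in RPMI8226, a larger share. Line-only peaks and stretches without peaks thus compare lists of unlike strictness. Each line has 1 list, so differences between the lines have no replicate at the level of the list and were not tested.

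As background, RB1 encodes the retinoblastoma protein, which holds E2F transcription factors in check until cyclin-dependent kinases phosphorylate it. CDKN2A, CDKN2B and CDKN2C encode INK4 inhibitors of CDK4 and CDK6, the kinases that act on that protein together with D-type cyclins, and CDKN2A also encodes ARF, which stabilises p53, from a separate first exon. DIS3 is a ribonuclease of the RNA exosome, TENT5C is a poly(A) polymerase that stabilises mRNA in plasma cells, FAF1 is a FAS-associated factor with roles in apoptosis and protein turnover, and ATM is the kinase that signals DNA double-strand breaks. An accessible promoter does not show that a gene is transcribed, and a peak list cannot tell a lost copy of DNA from a copy in closed chromatin.

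Promoter peaks separated the genes into 3 patterns. RB1, DIS3, TENT5C and ATM had a promoter peak in both lines, each with support 9 of 9 in MM.1S and 5 of 5 in RPMI8226. CDKN2A and CDKN2B had one in RPMI8226 alone, in all 5 libraries. CDKN2C, with 3 coding starts, had none in either line, and FAF1 had none at its coding start in either line. A promoter peak was one that touched the 2500 bp on either side of any annotated transcription start of the gene. By that rule 4 of the 8 genes had one in MM.1S, where 76.8% of protein-coding genes did. In RPMI8226 the rule gave 7 of 8, against 71.8% of protein-coding genes. The seventh was FAF1, through a weak peak at an internal start of a transcript that is not protein coding, so that 6 of 8 remained when starts of protein-coding transcripts alone were counted. A promoter peak in RPMI8226 alone was found at CDKN2A, CDKN2B and FAF1 and at 3.21% of protein-coding genes, and no promoter peak in either line was found at CDKN2C and at 20.0% of them.

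**Figure D1:**
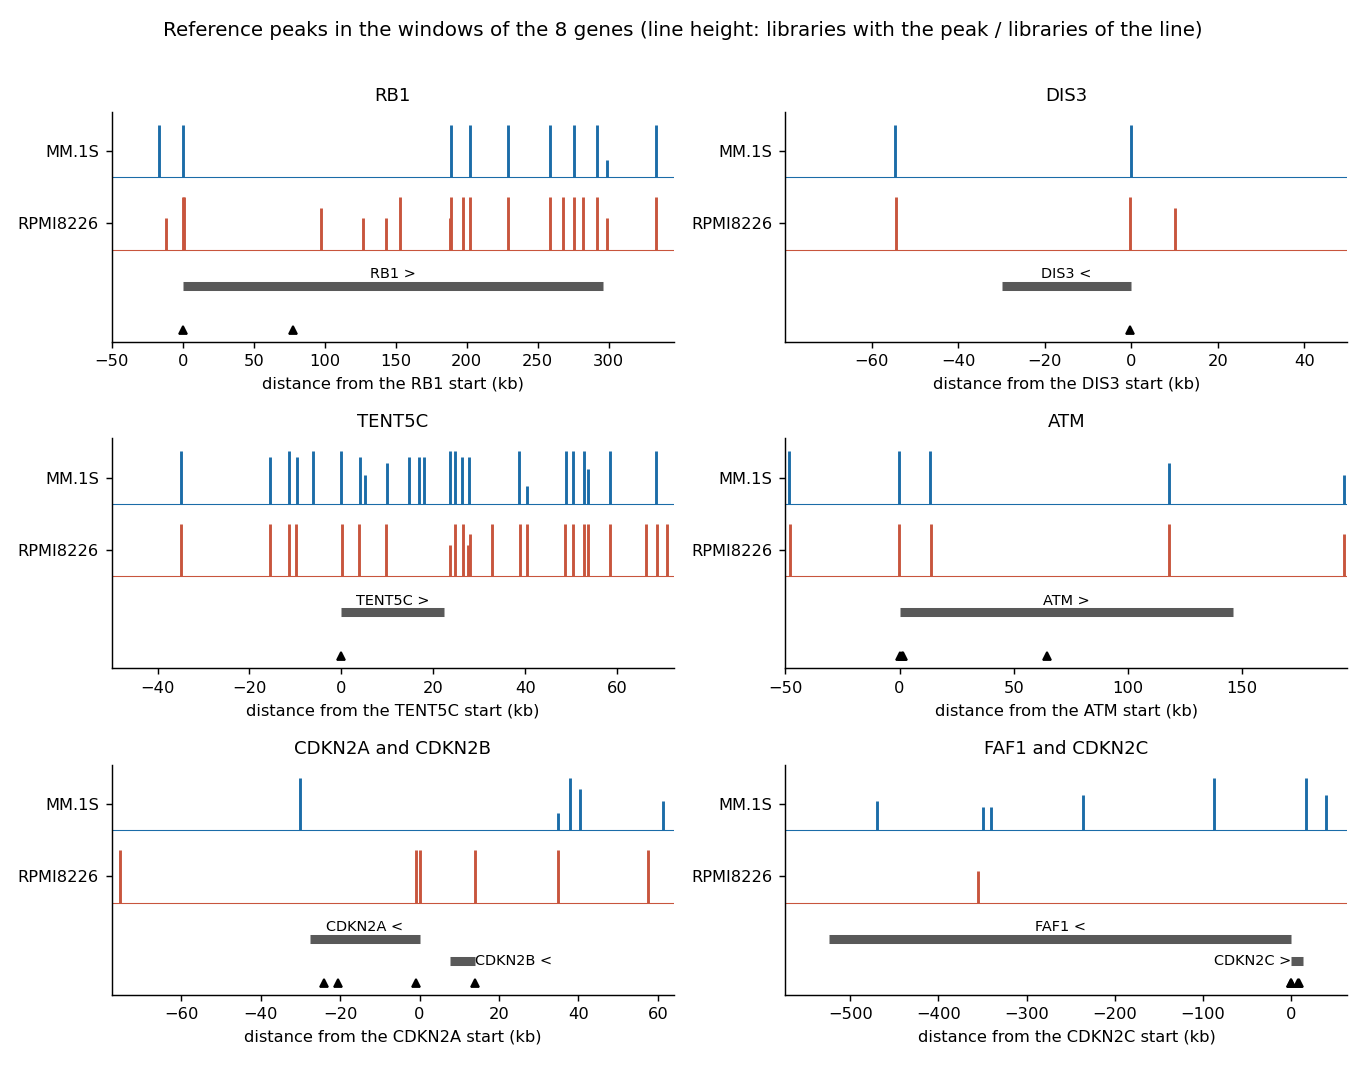
Reference peaks in the windows of the 8 genes, by distance in kb along the chromosome from the start named under each panel (negative values lie towards the start of the chromosome). Vertical lines are peaks, their height is the number of libraries with the peak divided by the libraries of the line (9 for MM.1S, 5 for RPMI8226), grey bars are gene bodies with the direction of transcription, and triangles are starts of protein-coding transcripts. TENT5C had 24 and 23 peaks, whereas the shared window of FAF1 and CDKN2C had 7 in MM.1S and 1 in RPMI8226.

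Starts that set the lines apart, or that were CpG-rich and lacked a peak in both, are shown by their DNA beside that of TENT5C, which had a peak in both, read from a promoter table of RefSeq (build GRCh38.p14). Each line gives the 250 bases upstream of a start, 5′ to 3′ on the strand of the gene, with CpG dinucleotides in capitals, because dense CpG marks the promoter class that is open in most cell types.
CDKN2A, first exon of ARF, chr9:21995325-21995574, minus strand: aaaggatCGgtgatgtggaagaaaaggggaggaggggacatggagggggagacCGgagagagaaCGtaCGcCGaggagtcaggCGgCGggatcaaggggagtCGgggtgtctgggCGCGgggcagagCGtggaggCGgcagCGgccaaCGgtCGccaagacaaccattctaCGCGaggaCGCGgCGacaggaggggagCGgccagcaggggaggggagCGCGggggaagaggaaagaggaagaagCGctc
CDKN2A, first exon of p16INK4a, chr9:21974858-21975107, minus strand: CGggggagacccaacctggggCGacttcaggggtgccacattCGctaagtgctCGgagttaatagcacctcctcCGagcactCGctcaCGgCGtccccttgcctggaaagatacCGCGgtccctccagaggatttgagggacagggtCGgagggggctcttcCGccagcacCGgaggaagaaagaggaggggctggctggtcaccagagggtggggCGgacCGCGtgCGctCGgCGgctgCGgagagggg
CDKN2B, chr9:22009306-22009555, minus strand: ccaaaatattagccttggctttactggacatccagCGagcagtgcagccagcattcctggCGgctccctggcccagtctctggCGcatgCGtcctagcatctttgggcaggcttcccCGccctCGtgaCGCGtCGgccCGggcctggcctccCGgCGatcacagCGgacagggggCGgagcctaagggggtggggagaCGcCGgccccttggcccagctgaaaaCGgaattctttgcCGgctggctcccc
CDKN2C, middle start, chr1:50968456-50968705, plus strand: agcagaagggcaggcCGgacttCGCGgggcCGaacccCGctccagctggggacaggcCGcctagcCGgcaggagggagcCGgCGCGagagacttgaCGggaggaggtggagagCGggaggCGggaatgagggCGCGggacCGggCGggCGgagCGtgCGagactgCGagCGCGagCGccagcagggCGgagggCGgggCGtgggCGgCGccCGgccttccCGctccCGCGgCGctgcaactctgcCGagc
FAF1, chr1:50960268-50960517, minus strand: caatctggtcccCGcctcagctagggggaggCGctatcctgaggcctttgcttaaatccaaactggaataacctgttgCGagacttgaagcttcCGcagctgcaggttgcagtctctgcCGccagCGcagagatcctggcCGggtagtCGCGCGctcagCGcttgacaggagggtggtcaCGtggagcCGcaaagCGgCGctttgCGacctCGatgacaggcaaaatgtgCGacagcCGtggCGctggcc
TENT5C, chr1:117605798-117606047, plus strand: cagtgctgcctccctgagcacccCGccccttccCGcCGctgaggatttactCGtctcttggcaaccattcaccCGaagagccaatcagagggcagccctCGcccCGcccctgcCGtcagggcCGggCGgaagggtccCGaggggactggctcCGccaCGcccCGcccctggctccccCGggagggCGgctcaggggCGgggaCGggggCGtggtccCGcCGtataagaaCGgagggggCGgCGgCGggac

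These stretches held 24, 20, 18, 35, 20 and 25 CpG in the order printed. The CDKN2C start had the most, with 77.2% G and C, and no peak within 199.6 kb of it in RPMI8226 or within 8.0 kb in MM.1S. The TENT5C start, printed last, had 74.0% G and C and a promoter peak in every library of both lines. Dense CpG was thus found both at starts with a peak and at starts without one.

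Over the whole promoter table, 13080 of 21613 coding starts were CpG-rich, here an observed to expected CpG ratio of at least 0.6 and at least 50% G and C over the 250 bases before and 50 bases after the start. The table held 12 starts of the 8 genes but not the main start of RB1, which had a peak in both lines. Of the 12, 9 were CpG-rich, and the main RB1 start is not counted among them. In MM.1S 5 of these 9 had no peak within 2500 bp, where 11.5% of all CpG-rich coding starts had none. In RPMI8226 3 of the 9 had none, against 18.8%. Those 3 lacked a peak in both lines, as did 9.8% of all CpG-rich coding starts, and they were the p16INK4a start of CDKN2A, the middle start of CDKN2C and the start of FAF1. CDKN2A and ATM each gave more than 1 of the CpG-rich starts, so the 9 are not independent.

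Literal matches to short motifs were sought on both strands in these 6 sequences and in the 250 bases upstream of the first and the third start of CDKN2C. CACGTG, the E-box bound by MYC and USF proteins, occurred once upstream of FAF1 and upstream of the first and the third start of CDKN2C, and in 6.34% of 35116 RefSeq promoters. GCGCATGCG, a site of NRF1, occurred once upstream of CDKN2B and in 1.64% of promoters, and AGCCAATC, a CCAAT box, occurred once upstream of TENT5C, where the CCAAT box in either of the forms searched (AGCCAATC or GGCCAATC) occurred in 5.01%. No match of those searched was found upstream of either CDKN2A start or of the middle CDKN2C start. The matches did not overlap one another.

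The retinoblastoma gene was open at its main start in both lines. RB1 lies on chromosome 13 at chr13:48303744-48599436, plus strand. The MM.1S promoter peak, chr13:48303203-48304815, was 1613 bp wide with support 9, and over the same span RPMI8226 had a pair of peaks with support 5, 853 bp (chr13:48303282-48304134) and 279 bp wide (chr13:48304570-48304848). Taken over its window, RB1 held 10 MM.1S peaks and 19 RPMI8226 peaks, of which 9 and 10 overlapped a peak of the other line. The one MM.1S peak without a counterpart, chr13:48286954-48287279, lay 16.6 kb upstream of the start with support 9. RPMI8226 also had a line-only peak upstream, at 11.8 kb, with support 3 (chr13:48291793-48292002). The shared peak farthest downstream lay 333.0 kb from the start, with support 9 in MM.1S and 5 in RPMI8226.

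Most of the difference at RB1 came from the body of the gene. Between the MM.1S promoter peak and the next MM.1S peak lay 187.3 kb without any MM.1S peak (chr13:48304816-48492080), and RPMI8226 had 5 line-only peaks in it, at 97.4, 126.8, 143.0, 153.3 and 187.9 kb from the RB1 start. Their support was 4, 3, 3, 5 and 3, so a single one, 921 bp wide and intronic (chr13:48456625-48457545), was called in every library. The peak at 143.0 kb lay near an internal RB1 start and near the start of LPAR6, a lysophosphatidic acid receptor gene that lies inside an RB1 intron on the other strand. Stretches without a peak of one list that held at least 3 peaks of the other, taken over the genome, held 13.8% of the RPMI8226 peaks, and 700 of the 2642 such stretches held at least 5. The GENCODE record of RB1 runs on past LPAR6 and over RCBTB2, and in this last part each MM.1S peak had a counterpart in RPMI8226 but not the reverse. From 188.7 kb to 298.7 kb, MM.1S had 7 peaks and each overlapped an RPMI8226 peak, including those at starts of RCBTB2, a gene on the other strand, and of the non-coding gene LINC00462. RPMI8226 had 3 further peaks there without an MM.1S counterpart, at 197.1, 268.0 and 281.9 kb, each with support 5. A further stretch of 94.9 kb without an MM.1S peak (chr13:48637085-48731950) began near the downstream end of the window and ran beyond it, and it held 3 RPMI8226 peaks, all outside the window, and the start of CYSLTR2, a leukotriene receptor gene.

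At the INK4 locus on the short arm of chromosome 9 the lines differed at every promoter peak. CDKN2A (chr9:21967752-21995301) and CDKN2B (chr9:22002903-22009305) both lie on the minus strand, and their windows overlap and share peaks. RPMI8226 had a pair of peaks at the ARF start, 852 bp (chr9:21993999-21994850) and 1017 bp wide (chr9:21995020-21996036), and a peak of 1069 bp at the CDKN2B start (chr9:22008665-22009733), all with support 5. The wider of the pair lies over the first sequence printed above and the CDKN2B peak over the third, and the pair at ARF also lies within 2500 bp of starts of CDKN2B-AS1, the antisense non-coding RNA of the locus. In MM.1S the 64.7 kb between chr9:21965429 and chr9:22030104 held no peak, so the nearest one was 29.0 kb from the ARF start and 20.8 kb from the CDKN2B start. Neither line had a peak at the p16INK4a start. There the nearest MM.1S peak was 9.4 kb away, at the start of CDKN2A-DT (chr9:21964984-21965428, 445 bp, support 9), and the nearest RPMI8226 peak was 19.1 kb away, at ARF. The 3 RPMI8226 peaks are the fewest that the definition of such a stretch allows, and 1722 of the 11611 MM.1S intervals at least as long held as many.

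Beyond the promoters, the MM.1S list was not empty at this locus. Upstream of CDKN2B it had peaks at 20.9, 23.8 and 26.5 kb, with support 3, 9 and 7, and one with support 5 at 47.3 kb that touches a start of CDKN2B-AS1. A single region was shared by the lines, the one at 20.9 kb, where the RPMI8226 peak (chr9:22030077-22030475) had support 5 and the MM.1S peak (chr9:22030105-22030374) had support 3. In RPMI8226 the remaining peaks were distal, 75.6 kb downstream of the ARF start and 43.5 kb upstream of CDKN2B, both with support 5. The sequences in the peaks of both lines lie in reference DNA, so they do not show how many copies either line carries.

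**Figure D2:**
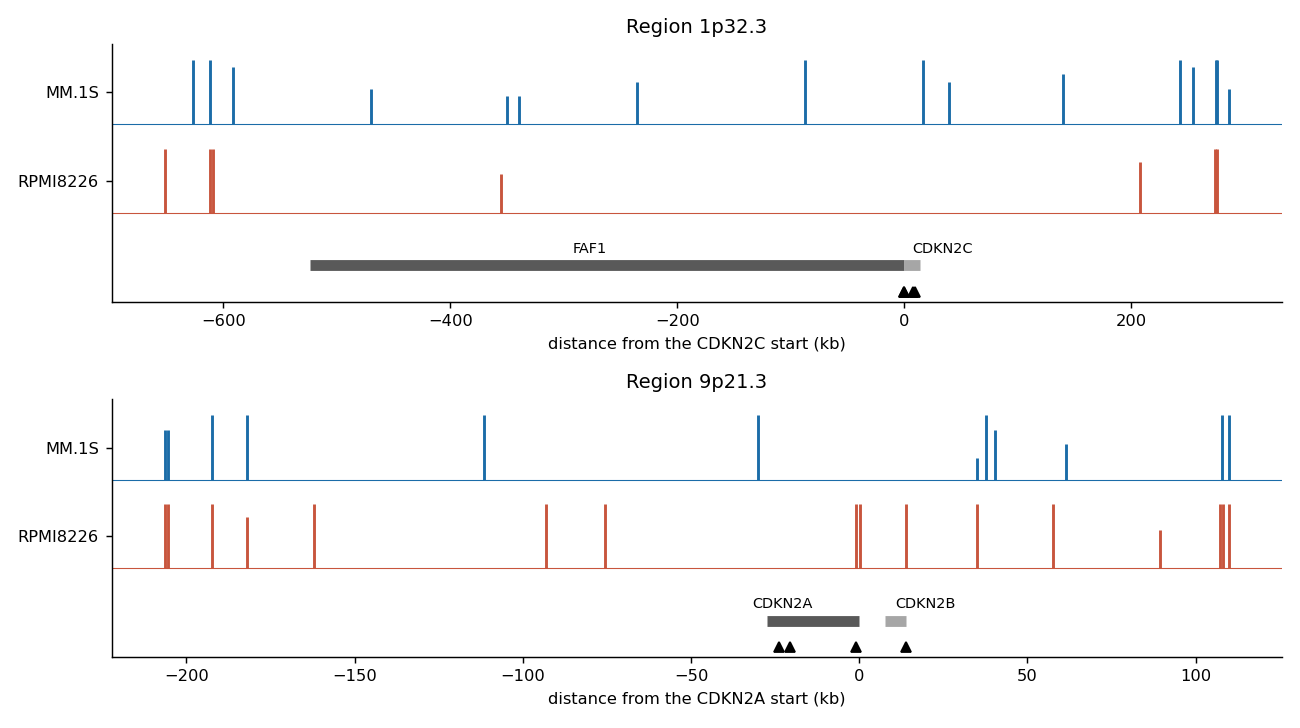
Reference peaks around FAF1 and CDKN2C (upper panel) and around CDKN2A and CDKN2B (lower panel), by distance in kb along the chromosome from the start named under each panel. Vertical lines are peaks with height by the share of libraries of the line, grey bars are gene bodies and triangles are starts of protein-coding transcripts. RPMI8226 had no peak for 562.6 kb over the FAF1 and CDKN2C starts, where MM.1S had 7, and MM.1S had none for 64.7 kb over CDKN2A and CDKN2B, where RPMI8226 had 3.

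On the short arm of chromosome 1 a long stretch lacked RPMI8226 peaks instead. Unlike at the INK4 locus, neither line had a peak at the coding starts of FAF1 and CDKN2C. FAF1 (chr1:50437028-50960267, minus strand) and CDKN2C (chr1:50960745-50974634, plus strand) start next to each other and point in opposite directions. RPMI8226 had no peak from chr1:50605739 to chr1:51168322, a length of 562.6 kb, and MM.1S had 7 peaks in it with support from 4 to 9, of which 2 were called in all 9 libraries. That interval covers the coding starts of FAF1, CDKN2C and C1orf185. Of 79936 intervals between neighbouring RPMI8226 peaks, 260 (0.325%) were at least as long, and 40 of these held at least 7 MM.1S peaks. Across the genome 10.6% of the MM.1S peaks lay in stretches of this kind, and 123 of the 1961 stretches (6.27%) held at least 7.

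The RPMI8226 interval is bounded by weak peaks. On one side lies the 135-bp peak in FAF1 (chr1:50605604-50605738) with support 3, the lowest a reference peak can have, and on the other a peak of 194 bp with support 4 (chr1:51168323-51168516). Without the first of these the stretch would reach back to the peak that ends at chr1:50351185 and run for 817.1 kb with 9 MM.1S peaks. The window of CDKN2C thus held no RPMI8226 peak at all, as did 4.57% of the windows of protein-coding genes, and that of FAF1 held 1, at 0.16 peaks per 100 kb.

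MM.1S also lacked a peak at the coding starts of FAF1 and CDKN2C. Its interval over them ran from chr1:50874012 to chr1:50976740, or 102.7 kb, with no peak of either line in it, and 6455 of the 72771 MM.1S intervals were at least as long. The nearest MM.1S peak, chr1:50976741-50978622, lay 6.5 kb from the third CDKN2C start and 16.5 kb from that of FAF1, beyond the 3′ end of CDKN2C. It was 1882 bp wide, the widest peak in any of the 8 windows, had support 9, and held 129 CpG at 61.4% G and C without touching any annotated start. Its middle 300 bases are given because a CpG-rich peak without a start is unlike the other distal peaks of these windows, which held at most 25 CpG (plus strand, hg38, CpG in capitals).
Peak beyond CDKN2C, chr1:50977532-50977831: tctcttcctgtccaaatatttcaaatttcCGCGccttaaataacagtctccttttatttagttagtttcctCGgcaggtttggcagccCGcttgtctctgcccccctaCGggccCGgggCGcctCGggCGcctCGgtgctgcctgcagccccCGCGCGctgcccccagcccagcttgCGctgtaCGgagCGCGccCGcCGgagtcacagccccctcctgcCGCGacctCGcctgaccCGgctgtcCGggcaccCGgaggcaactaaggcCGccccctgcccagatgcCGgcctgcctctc

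Within FAF1 itself MM.1S had 5 intronic peaks, with support 5, 4, 4, 6 and 9 from the 3′ end to the 5′ end of the gene. The one called in every library, chr1:50873462-50874011, lay 86.5 kb into the gene and was the only distal peak of the 8 windows with an E2F match. An E2F match was thus found in 1 of 43 MM.1S distal peaks of the windows (2.33%), against 1.25% of all distal peaks of the list. This FAF1 peak held 3 matches, to E2F (GCGCCAAA, the other strand of TTTGGCGC), CTCF (AGGTGGCAG) and AP-1 (TGACTCA), and 300 bases with them are printed on the plus strand of hg38 with the matches in capitals. For comparison the whole of the RPMI8226 peak of FAF1 follows. It held no CpG and no literal match to the forms searched, a search that misses variant sites.
MM.1S peak in a FAF1 intron, chr1:50873528-50873827: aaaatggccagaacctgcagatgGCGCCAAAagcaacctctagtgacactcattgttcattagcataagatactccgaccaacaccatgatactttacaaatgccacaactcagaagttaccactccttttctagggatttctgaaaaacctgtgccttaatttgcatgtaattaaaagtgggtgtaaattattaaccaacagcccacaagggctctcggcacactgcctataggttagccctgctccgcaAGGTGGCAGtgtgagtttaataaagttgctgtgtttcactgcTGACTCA
RPMI8226 peak in a FAF1 intron, chr1:50605604-50605738: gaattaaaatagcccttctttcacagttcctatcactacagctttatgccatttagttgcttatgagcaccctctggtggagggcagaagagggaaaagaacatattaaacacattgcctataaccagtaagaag

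TENT5C stood at the other end of the range. The gene lies at chr1:117606048-117628389, plus strand, and its window held 24 MM.1S peaks and 23 RPMI8226 peaks, or 19.6 and 18.8 per 100 kb. The median over the windows of protein-coding genes was 4.22 in MM.1S and 4.42 in RPMI8226. Out of 20033 windows, 7 were denser in MM.1S and 20 in RPMI8226. Peaks covered 10.6% of the window in MM.1S and 7.01% in RPMI8226. The promoter peak, over the last of the upstream sequences above, was 1184 bp wide in MM.1S (chr1:117605280-117606463) and 775 bp in RPMI8226 (chr1:117605742-117606516). All other peaks of the window were distal, 23 in MM.1S and 22 in RPMI8226.

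**Figure D3:**
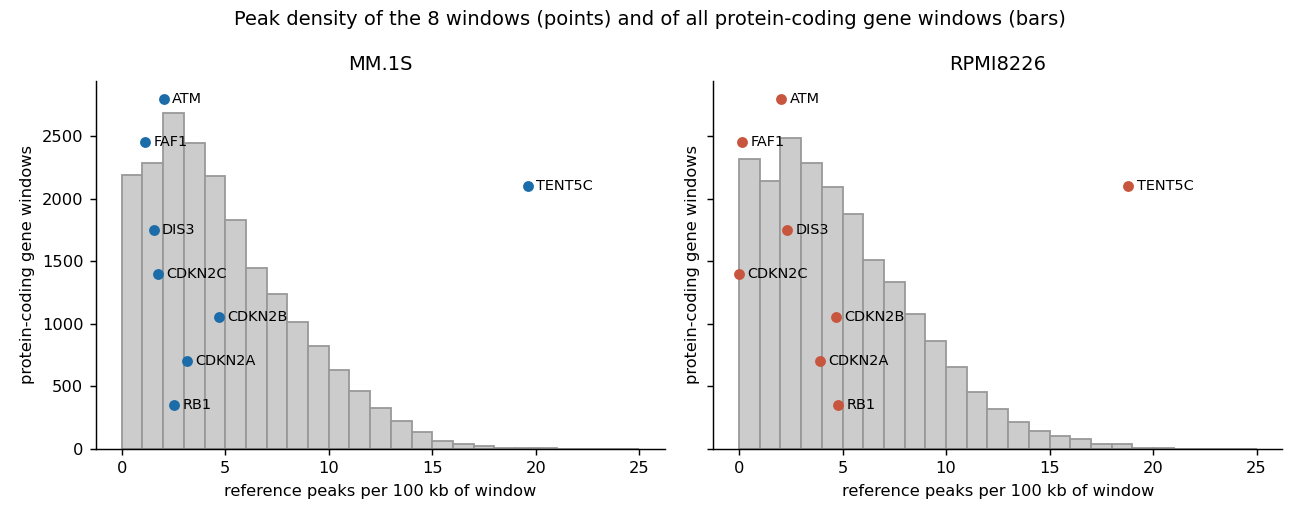
Peak density of the windows of the 8 genes (points, labelled, placed at arbitrary heights) and the number of protein-coding gene windows at each density (bars), in reference peaks per 100 kb. TENT5C lay at 19.6 in MM.1S and 18.8 in RPMI8226, and FAF1 at 1.12 and 0.16.

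The lines shared most of the TENT5C peaks. A counterpart in the other list was found for 19 of 24 MM.1S peaks and 20 of 23 RPMI8226 peaks, and support reached the maximum at 12 and 20 of them. Sharing ran on both sides of the gene, from 35.0 kb upstream to 68.6 kb downstream of the start. Line-only peaks were few, and most of those of MM.1S lay inside the gene. MM.1S had 5, at 6.2 kb upstream and at 5.2, 14.6, 16.9 and 17.9 kb downstream of the start, and RPMI8226 had 3, at 32.8, 66.2 and 70.9 kb downstream with support 5.

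Of the line-only MM.1S peaks, 3 filled a stretch of 13.9 kb without an RPMI8226 peak (chr1:117615786-117629706), each with support 8. One was intronic (chr1:117620425-117620922). Another covered the start codon of TENT5C at chr1:117622869-117622871 (chr1:117622761-117623089, 329 bp), and the last covered its stop codon (chr1:117623705-117624211, 507 bp). A stretch holds at least 3 peaks by definition, and 1934 of the 39272 RPMI8226 intervals at least as long held at least 3 MM.1S peaks. The whole coding sequence lies in the second of 2 exons, and no RPMI8226 peak touched that exon. The first 300 bases of the peak at the start codon show the end of the intron and the beginning of the coding sequence, on the plus strand of hg38, with an IRF match (TTCAGTTTC, from TTCANTTTC) and a CTCF match (AGATGGCAG) in capitals, the second of which contains the start codon.
TENT5C start codon peak, chr1:117622761-117623060: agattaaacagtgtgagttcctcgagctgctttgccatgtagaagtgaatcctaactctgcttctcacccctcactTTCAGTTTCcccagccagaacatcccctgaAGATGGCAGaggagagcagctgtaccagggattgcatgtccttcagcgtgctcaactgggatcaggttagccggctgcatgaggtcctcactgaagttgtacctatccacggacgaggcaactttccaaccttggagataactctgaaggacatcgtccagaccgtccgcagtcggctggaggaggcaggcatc

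The 3′ side of TENT5C held most of its peaks that both lines shared. At 24.7 kb from the start, MM.1S and RPMI8226 had peaks of 564 and 492 bp with full support (chr1:117630453-117631016 and chr1:117630496-117630987), each with an AP-1 and a CTCF match. Some 48.7 to 53.7 kb downstream, 4 peaks of each line lay close together. RPMI8226 called all of its 4 in every library, while in MM.1S support was 9, 9, 9 and 6. The largest difference in support at a shared site of this window was at 40.5 kb, where the MM.1S peak had support 3 of 9 and the RPMI8226 peak 5 of 5.

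DIS3 and ATM were the plain cases, each with a promoter that it shares with a neighbour on the other strand. DIS3 (chr13:72752169-72782096, minus strand) had promoter peaks of 947 bp in MM.1S (chr13:72781499-72782445, support 9) and 892 bp in RPMI8226 (chr13:72781501-72782392, support 5), which also cover the start of PIBF1. Both held 3 E2F matches and 1 ETS match (CCGGAAGT). At least 1 E2F match was found in 7.64% of all MM.1S and 5.39% of all RPMI8226 promoter peaks, and an ETS match in 5.49% and 4.93%. The other peak shared by the lines lay 54.5 kb downstream, at the starts of MZT1 and BORA. RPMI8226 alone had a distal peak 10.1 kb upstream of DIS3, with support 4. MM.1S had no distal peak in the window, and a stretch of 268.0 kb without an MM.1S peak (chr13:72459055-72727063) ended at the MZT1 and BORA peak, with 3 RPMI8226 peaks that all lay outside the window. Of the 1207 MM.1S intervals at least as long, 371 held at least 3 RPMI8226 peaks.

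ATM (chr11:108223044-108369102, plus strand) had 5 peaks in each line, and all 5 overlapped. Its promoter peaks were 1081 bp (chr11:108222318-108223398, support 9) and 1058 bp wide (chr11:108222298-108223355, support 5), over the start of NPAT, a histone gene regulator. The 4 distal peaks lay 48.2 kb upstream and 13.5, 118.1 and 194.7 kb downstream of the start by MM.1S positions. Their support was 9, 9, 7 and 5 in MM.1S and 5, 5, 5 and 4 in RPMI8226. No stretch of either line with at least 3 peaks of the other touched the window.

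Counted once each over the 8 windows, 10 of the 53 MM.1S peaks and 17 of the 57 RPMI8226 peaks lay at an annotated start of any gene (18.9% and 29.8%), where 39.2% and 36.0% of all peaks of the lists did. Taken over both classes, sharing was near the background. A peak of the other line overlapped 36 of 53 MM.1S peaks (67.9%, 95% Wilson interval 54.5 to 78.9) against 64.6% of the list, and 38 of 57 RPMI8226 peaks (66.7%, 53.7 to 77.5) against 62.0%. By class it was less so. Among promoter peaks 8 of 10 were shared in MM.1S (80.0%, 49.0 to 94.3; 71.8% of all promoter peaks of the list) and 9 of 17 in RPMI8226 (52.9%, 31.0 to 73.8; 76.6%). Among distal peaks 28 of 43 were shared in MM.1S (65.1%, 50.2 to 77.6; 60.0% of all distal peaks) and 29 of 40 in RPMI8226 (72.5%, 57.2 to 83.9; 53.7%). The RPMI8226 promoter peaks without a counterpart were those at CDKN2A, CDKN2B and FAF1 and 4 in the RB1 window. TENT5C weighed heavily in these shares, and without its window 17 of 29 MM.1S peaks (58.6%) and 18 of 34 RPMI8226 peaks (52.9%) were shared. Intervals cover counting error only, and peaks of one gene are not independent.

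**Figure D4:**
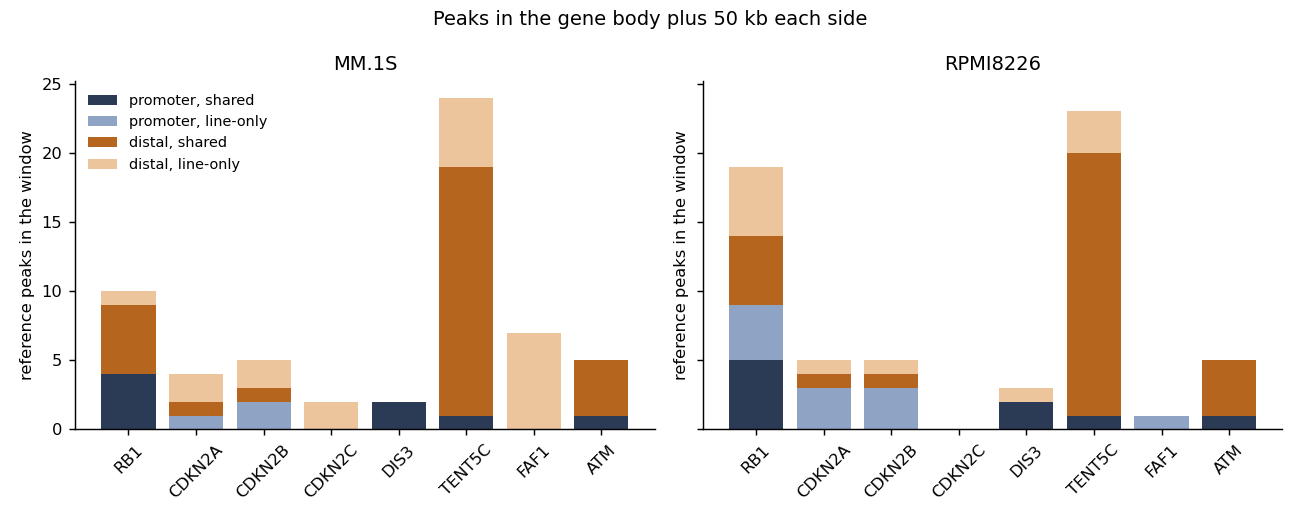
Number of reference peaks in the window of each gene, split by promoter or distal position and by overlap with a peak of the other line (shared) or not (line-only). Promoter peaks include those at starts of other genes in the window, and peaks in overlapping windows (CDKN2A with CDKN2B, FAF1 with CDKN2C) count for both genes. All 5 peaks of ATM were shared in each line and none of those of FAF1 and CDKN2C.

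Most of the peaks had high support. In MM.1S 30 of 53 peaks (56.6%, 43.3 to 69.0) were called in all 9 libraries, against 52.0% of the list, and in RPMI8226 45 of 57 (78.9%, 66.7 to 87.5) in all 5, against 64.1%. Among promoter peaks these were 9 of 10 in MM.1S, against 67.5% of all promoter peaks, and 13 of 17 (76.5%) in RPMI8226, against 74.2%, and at TENT5C 12 of 24 and 20 of 23. Since 6 of the 9 MM.1S libraries were TSW or CO, a peak with support over 6 had to be present in at least 1 MONO library, and, by the same count, in each of the other conditions. That held for 41 of 53 peaks (77.4%; 72.3% of the list). The other 12 could have been absent from MONO, which the list does not show. For RPMI8226, with 1 MONO library, the same holds only for peaks of support 5, and 12 peaks had less. Among the latter were the FAF1 peak and 3 of the 5 in the RB1 stretch at support 3.

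**Figure D5:**
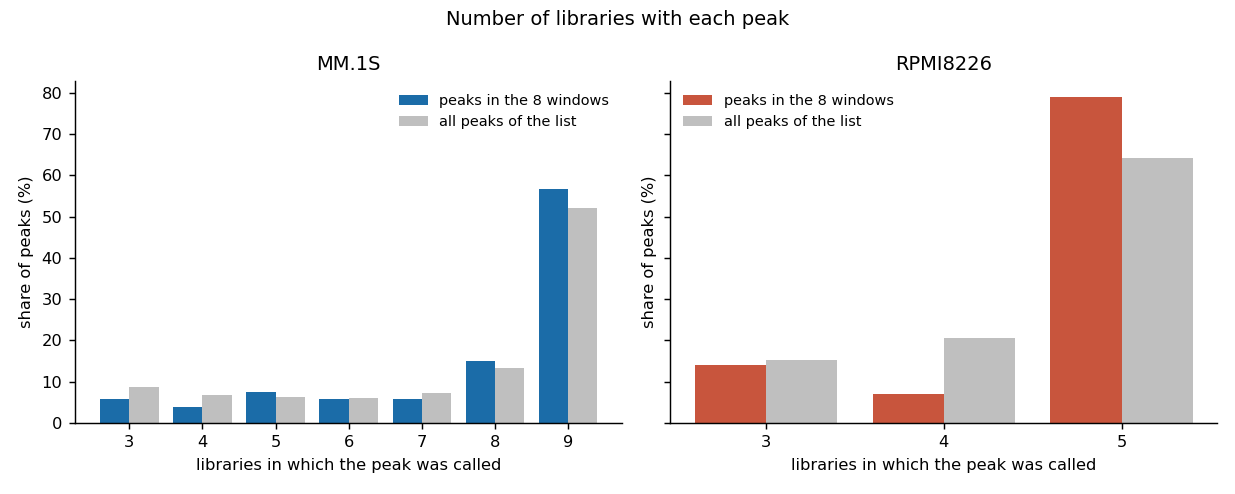
Share of reference peaks by the number of libraries in which the peak was called, for the peaks in the windows of the 8 genes (coloured) and for all peaks of the list (grey). In MM.1S 56.6% of the peaks in the windows were called in all 9 libraries and in RPMI8226 78.9% in all 5.

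In the 8 windows, motif matches in distal peaks were below the list share for AP-1 and IRF and above it for CTCF. All of these counts were small. AP-1 (TGACTCA or TGAGTCA), the site of JUN and FOS proteins, occurred in 7 of 43 MM.1S distal peaks (16.3%; 17.5% of all distal peaks of the list) and in 5 of 40 in RPMI8226 (12.5%; 23.5%). The CTCF core, in the 4 forms searched (AGGGGGCGC, AGGTGGCAG, AGGGGGCAG and AGATGGCAG), occurred in 5 of 43 in MM.1S (11.6%; 9.43% of all distal peaks of the list) and in 4 of 40 in RPMI8226 (10.0%; 7.003%). IRF (GAAANTGAA), a site of the factors that include the plasma cell regulator IRF4, occurred in 3 of 43 (6.98%; 11.7%) and 1 of 40 (2.5%; 7.85%). These are counts of letters in peaks of different widths and were not tested.

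Nearly all partners of these genes had a promoter peak in both lines, where 76.8% of protein-coding genes had one in MM.1S and 71.8% in RPMI8226. All 18 genes of the retinoblastoma and G1 phase list, from CCND1 to E2F4, had a promoter peak in both lines, as did 12 of 12 genes of the ATM and damage response list, 12 of 12 of the RNA exosome, 6 of 6 partners of FAF1 and 14 of 14 other genes lost or mutated in MM. CDKN2D, which encodes the remaining INK4 inhibitor, was among them, so it had a promoter peak in both lines, in contrast to CDKN2C. Exceptions were found only in the TENT5 family, where TENT5B had one in both lines, TENT5A in MM.1S alone and TENT5D in neither. Over the 64 genes of these lists, each counted once, 63 had a promoter peak in MM.1S and 62 in RPMI8226, each in every library of its line.

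Promoter peaks were counted at marker genes of plasma cells and stroma, though such peaks alone cannot verify the labels. All 10 plasma cell genes, SDC1 and CD38 among them, had a promoter peak in both lines. Support was full at 9 of the 10 in each line. The exceptions were JCHAIN in MM.1S (8 of 9 libraries) and SLAMF7 in RPMI8226 (4 of 5). Of 12 stromal genes, 8 had one in MM.1S and 6 in RPMI8226, against 76.8% and 71.8% of protein-coding genes. COL1A1, FN1 and PDGFRB had one in every library of both lines, and COL3A1, LUM, POSTN and THY1, which encodes the CD90 used to sort away stromal cells, had none in either. COL1A2, PDGFRA and DCN had one in both lines, with support 6, 9 and 8 in MM.1S and 3, 4 and 4 in RPMI8226. TWIST1 and SPARC had one in MM.1S alone. The part of stromal DNA in the peaks of the 8 genes was not tested, since the files give no value for a single library. In the FAF1 and CDKN2C stretch, support was 9 at 2 of the 7 MM.1S peaks and 7 at chr1:51100330-51100990. Support over 6 requires a MONO library, so these peaks were present in MONO. The rest had support from 4 to 6, and the list does not show whether they were in MONO. The part of stromal DNA was not tested at any peak of this stretch. The windows of 3.96% of protein-coding genes held no MM.1S peak, and none of the 8 genes was among them.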

How the data were processed

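Omni-ATAC libraries of MM.1S and RPMI8226 were grouped by line and culture condition from their titles. By the methods and the processing notes, the authors aligned reads to hg38 with Bowtie2, dropped reads with several positions and duplicates, and called peaks with MACS3. The deposited lists give each reference peak a position and 1 whole number, in a unit other than reads. It is not named in the files and was read as the number of libraries with the peak. Neither read counts nor a normalization came with them. The study gives library read totals in its supplement, which were not used here. Starts were read as counted from 0 and are given from 1.

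Peaks were joined to GENCODE release 44 with pandas 2.3.3. Shared peaks overlapped by at least 1 bp. A stretch was the interval between neighbouring peaks of one list that held at least 3 peaks of the other. Starts of a gene within 500 bp were grouped. Intervals are 95% Wilson intervals. The interval code was tested on simulated data. Gene lists, members and rules were chosen with earlier results of these data known. No statistical test was run. All 8 genes were reported and all their peaks were counted, though not every peak was described by itself. Other genes were named where a start lay in a window or stretch or by the lists.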

Additional observations from a re-analysis of the deposited data

How the results depend on the processing

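Of 34 values recomputed under other settings, 24 stayed within their counting interval or within 1.5 times the reported count. With the gene bodies alone, 23 MM.1S and 27 RPMI8226 peaks remained. With peaks called in every library, 30 MM.1S peaks remained and 80.0% were shared. When narrow peaks, below the median width of the list, were dropped, 25 MM.1S peaks (84.0% shared) and 29 RPMI8226 peaks remained. Stretches without MM.1S peaks that touched a window numbered 4, and 2 with peaks of every library or 1 with at least 5 peaks required. Those without RPMI8226 peaks numbered 2, and 1 with at least 5 peaks required. These settings keep fewer peaks by construction. No paired analysis was possible because the lists pool all libraries of a line, and for the same reason no library could be left out. Depth limits these lists, since a region without a peak may be closed, lost or under the threshold of the peak caller, and these cannot be told apart.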
